A study of Homo sapiens with 6 samples.

Results

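The WAVE regulatory complex genes CYFIP1, CYFIP2, NCKAP1, WASF1, WASF2, WASF3, ABI1, ABI2 and BRK1 were followed in DU145 cells, a human prostate cancer line grown from a metastasis, after knockdown of RCC2. The 9 genes were taken by symbol from the 50868 rows of each count file, and each symbol matched 1 row. The set was chosen by the log2 fold change of CYFIP2 between siRCC2 and siCtrl in these same libraries, so the difference between siRCC2 and siCtrl for the members is given as a description, with no p-value. RNA was measured in 3 siRCC2 libraries (cells labelled RCC2 knockdown) and 3 siCtrl libraries (cells labelled RCC2 wild type), made from total RNA of 1 cell line. The series title ties RCC2 to proliferation, migration, Hedgehog signalling and stem-like cells. The siRNA sequences, their dose and the time after transfection were not stated in the labels. No label says whether a group's 3 libraries were separate cultures, and p-values below therefore reflect the spread among libraries, possibly a technical one.

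The WAVE regulatory complex drives the growth of branched actin networks at the leading edge of a moving cell. A WASF protein, also called WAVE, carries the region that activates the Arp2/3 actin nucleator, and this region is held inactive by the rest of the complex until active RAC binds the CYFIP subunit. Each complex holds 1 CYFIP, 1 NCKAP1-type, 1 WASF and 1 ABI protein together with BRK1, so that paralogs can stand in for each other at a given position. CYFIP1, also known as Sra-1, and CYFIP2, also known as PIR121, are also binding partners of the translational regulator FMRP.

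Total counts were 17377191, 19895431 and 19111049 in the siRCC2 libraries and 19808215, 18206357 and 18791049 in the siCtrl libraries. RCC2 itself, the gene targeted by the siRNA (chromosome 1, 17406760 to 17439724, minus strand), had 59.2, 57.6 and 54.8 CPM (counts per 1e6 counts of the library, scaled by TMM, edgeR's trimmed-mean normalization) in siRCC2, against 198, 194 and 191 CPM in siCtrl (log2 fold change -1.76 ± 0.07, edgeR adjusted p = 2e-05). siRCC2 replicate 1 stood apart from the other siRCC2 libraries on the second principal component, which held 16.4% of the variance, at 41.5 against -13.3 and -35.2. Without this library the log2 fold change was 0.16 for NCKAP1, against -0.03 with it, and for the other members 0.11 for CYFIP1, -3.53 for CYFIP2, 0.10 for WASF1, 0.10 for WASF2, 0.50 for WASF3, 0.19 for ABI1, -0.29 for ABI2 and 1.02 for BRK1. The epithelial markers KRT8, KRT18, KRT19, CDH1 and EPCAM were present, with a summed level of 1620 to 1820 CPM in siRCC2 and 1310 to 1330 CPM in siCtrl. They did not move together. The log2 fold change was 0.66 for KRT8, 0.51 for KRT18, 0.29 for CDH1 and -0.48 for EPCAM. For KRT19 it was -0.15, with overlapping groups. KLK2 was at 0 in all 6 libraries and KLK3 reached at most 1 count. Of 7 leukocyte markers, 6 had at most 3 counts in any library.

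Among the 9 members CYFIP2 was far lower in siRCC2, BRK1 was higher at about 2.19-fold, and the other 7 differed by less than 0.5 on the log2 scale. All 9 members passed the filter on low counts, the lowest count of any member in any library being 34. At an adjusted p under 0.05, 41.8% of the 16536 tested genes were called different, 20.7% higher and 21.1% lower in siRCC2. For description alone, 3 of the 9 members lay past the same threshold, with BRK1 and WASF3 higher and CYFIP2 lower. Since the set was chosen on this contrast, nothing is read from that count. The siRCC2 and siCtrl ranges did not overlap for 6 of the 9 members, against 55.4% of all tested genes. Of these 6, CYFIP1, WASF3, ABI1 and BRK1 were higher in siRCC2 and CYFIP2 and ABI2 were lower, where 26.9% and 28.5% of all tested genes were higher and lower without overlap. The ranges of NCKAP1, WASF1 and WASF2 overlapped. The median log2 fold change was 0.16 over the members and -0.02 over all tested genes. These are bulk RNA samples, in which fewer cells that make a transcript and less of it per cell cannot be told apart.

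**Figure D1:**
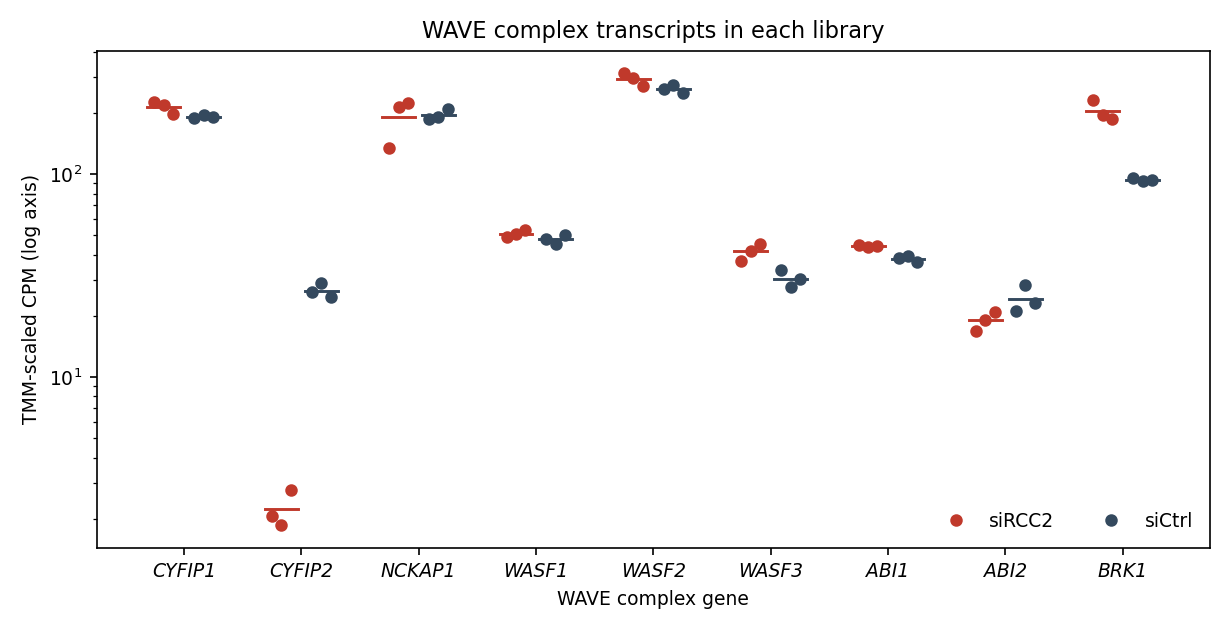
TMM-scaled CPM on a log axis for each of the 9 complex genes, with 1 point per library, siRCC2 libraries to the left of siCtrl libraries, and a bar at each group mean. CYFIP2 lies between 1.86 and 2.78 CPM in siRCC2 and between 24.7 and 28.99 CPM in siCtrl, and BRK1 is the other gene whose groups stand well apart.

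CYFIP2 (chromosome 5, 157266079 to 157395595 on GRCh38, plus strand), one of the paired paralogs that form the RAC-binding subunit, had 34, 36 and 53 counts in the siRCC2 libraries, against 527, 538 and 480 counts in the siCtrl libraries. On the scaled level these were 2.06, 1.86 and 2.78 CPM in siRCC2, against 26.2, 28.99 and 24.7 CPM in siCtrl. Every siRCC2 library lay far below every siCtrl library. CYFIP2 averaged 2.23 ± 0.486 CPM in siRCC2 and 26.6 ± 2.17 CPM in siCtrl (SD, n = 3 each), a log2 fold change of -3.57 ± 0.18 (SE), which is 11.9-fold lower. Among the 14984 tested genes with a mean of at least 1 CPM, its log2 fold change was the seventh from the lowest. Under the alternative normalizations, filters, tests and left-out libraries the value lay between -3.76 and -3.44. None of the 50-base stretches of the longest CYFIP2 transcript, 1 of 24 annotated, occurs in a transcript of another gene, CYFIP1 included. Reads from that transcript are therefore not shared with the paralog by sequence identity over 50 bases, and the other CYFIP2 transcripts were not searched. CYFIP2 is best known from the nervous system and from lymphocytes. The 4 neuroendocrine markers summed to 1.87 to 2.52 CPM in siRCC2 and 6.55 to 7.01 CPM in siCtrl, nearly all of it SYP, with INSM1 at 0 and CHGA at no more than 6 counts. The 7 leukocyte markers summed to 2.04 to 3.35 CPM in siRCC2 and 3.61 to 3.92 CPM in siCtrl, nearly all of it CD14, with CD3E and LCP2 at 0 and PTPRC at 1 count in 1 library.

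**Figure D2:**
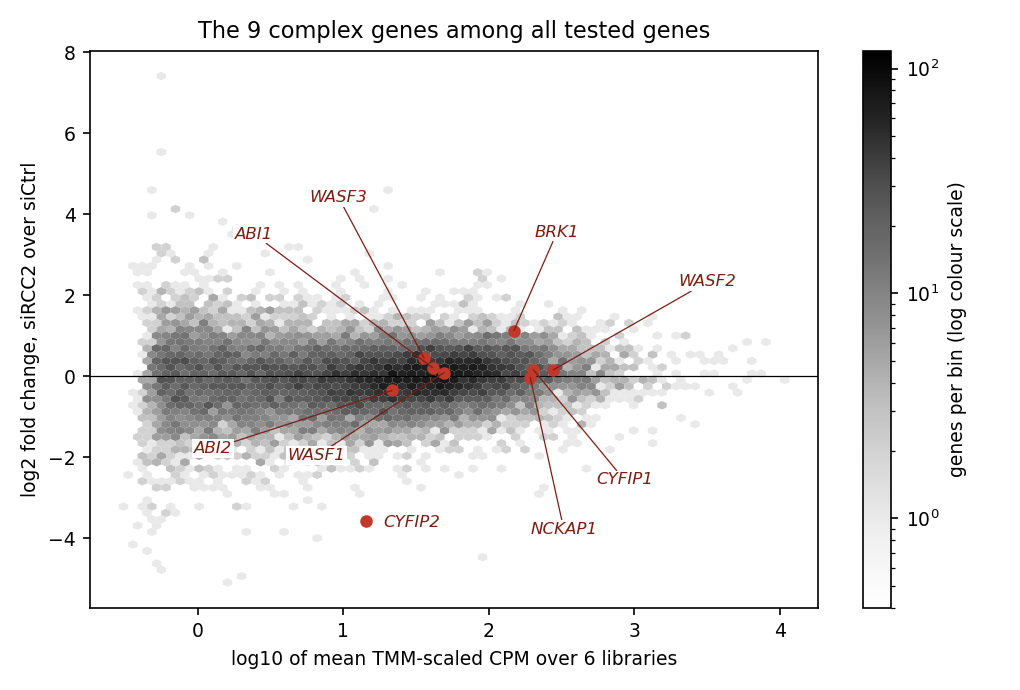
Log2 fold change of siRCC2 over siCtrl against the log10 of mean TMM-scaled CPM for the 16536 tested genes, as grey bins shaded by number of genes, with the 9 complex genes in red. CYFIP2, at -3.57, lies below the body of genes of its level, BRK1 lies at 1.13, and the other 7 lie between -0.35 and 0.45.

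The region around the start of CYFIP2 is shown beside that of BRK1, since these members had the lowest and the highest log2 fold change of the set. Each sequence runs from 250 bases before to 50 bases after a RefSeq start (GRCh38.p14), the first of 2 for CYFIP2 and the 1 listed for BRK1, plus strand, at chr5:157265873-157266172 for CYFIP2 and at chr3:10115425-10115724 for BRK1. Capitals mark the GC box GGGCGG or its reverse complement CCGCCC.
CYFIP2: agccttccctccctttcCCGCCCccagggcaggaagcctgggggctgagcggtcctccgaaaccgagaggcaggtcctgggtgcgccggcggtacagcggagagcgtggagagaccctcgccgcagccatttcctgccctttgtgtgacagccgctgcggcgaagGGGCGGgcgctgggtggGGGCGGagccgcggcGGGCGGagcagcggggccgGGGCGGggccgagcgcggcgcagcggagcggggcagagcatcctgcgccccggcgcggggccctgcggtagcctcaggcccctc
BRK1: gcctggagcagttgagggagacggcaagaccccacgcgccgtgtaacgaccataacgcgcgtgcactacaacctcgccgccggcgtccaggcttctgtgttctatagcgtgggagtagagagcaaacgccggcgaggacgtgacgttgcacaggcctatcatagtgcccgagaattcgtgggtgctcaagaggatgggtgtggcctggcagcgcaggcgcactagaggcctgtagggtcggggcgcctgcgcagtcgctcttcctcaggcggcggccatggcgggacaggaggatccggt
The first CYFIP2 window held 5 GC boxes and the BRK1 window held 0, while 44.95% of 35116 RefSeq promoter windows of the same length held at least 1 and 26.1% held 2 or more. G and C made up 76.7% of the first CYFIP2 window and 64.7% of the BRK1 window, against a median of 58.7% over all windows. The window at the other CYFIP2 start, chr5:157269074-157269373, held 0 GC boxes, 51.0% G and C and 3 CpG dinucleotides. There were 35 CpG dinucleotides in the first CYFIP2 window and 30 in the BRK1 window, against a median of 14. Among the other members, the like window held 3 GC boxes for WASF1, 2 for ABI2, 1 for NCKAP1 and 1 for ABI1. WASF3, which was higher in siRCC2, held 2 at each listed start. The windows of CYFIP1 held 0, 0, 2 and 0, and WASF2 had no matched promoter. The counts of boxes thus did not follow the order of the log2 fold changes over the members, and a link between them was not tested. A string match describes these letters and does not show that a factor binds there.

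The tested neighbours of CYFIP2 had no difference of its size. Within 500 kb on either side of the gene the files held 27 other rows, of which 13 had 0 counts in all 6 libraries and 7 were tested. edgeR called 0 of the 7 at an adjusted p under 0.05, with 1 at an unadjusted p under 0.05, and DESeq2 likewise called 0, with 1 at an unadjusted p under 0.05. Their log2 fold changes lay between -0.23 for CLINT1, a clathrin adaptor, and 0.34 for NIPAL4. ADAM19, a metalloprotease gene whose end overlaps that of CYFIP2 by 62 bases, averaged 39.4 ± 0.925 CPM in siRCC2 and 33.8 ± 1.13 CPM in siCtrl (log2 fold change 0.22 ± 0.08, edgeR adjusted p = 0.0567). MED7, a Mediator subunit, had a log2 fold change of 0.31 and LSM11 one of 0.20. Of the other annotated genes that overlap CYFIP2, FNDC9 and AC009185.1 had 0 counts while AC008676.1 and AC016571.1 had at most 5.

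**Figure D3:**
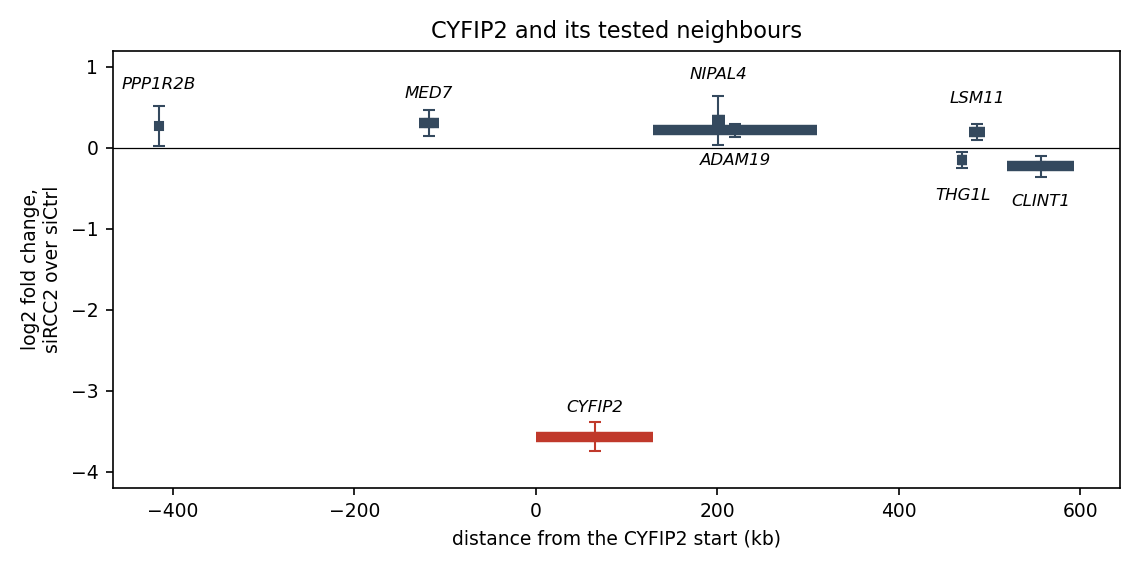
Log2 fold change of siRCC2 over siCtrl for CYFIP2 and for the 7 tested genes within 500 kb, against distance from the CYFIP2 start in kilobases. Horizontal bars span the gene, squares mark its middle and vertical bars are ± 1 SE; CYFIP2 lies at -3.57 and its neighbours lie between -0.23 and 0.34.

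A 6-base string, TCTGGA, was picked in an earlier analysis of these same libraries as one carried by the 3′ UTRs of genes that were lower in siRCC2, so its presence here is a description and supports nothing. The longest coding transcript of CYFIP2 in GENCODE 29 has a 3′ UTR of 2595 bases with 2 matches, at positions 24 and 1794 from the stop codon, shown with the string in capitals and 12 bases on each side, on the transcribed (plus) strand.
CYFIP2 first match: tgcagacccttaTCTGGAggaggaagagaa
CYFIP2 second match: cagatcctcctgTCTGGAggtaccaccttc
Of 1791 genes with a 3′ UTR of like length, 60.6% held the string. ABI2 held 8 matches, NCKAP1 3, WASF3 2, CYFIP1 1 and WASF2 1, while WASF1, ABI1 and BRK1 held 0. These counts are not scaled by length. The 3′ UTR has 20371 bases in ABI2 and 16587 in NCKAP1, and 100% of genes of like length held the string. It has 703 bases in WASF1 and 895 in BRK1, where 25.1% and 30.3% did. Over the 12757 tested genes searched, 43.5% held the string, with a median log2 fold change of -0.13 in those with it and 0.04 in those without. These medians were not matched for 3′ UTR length.

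CYFIP1 (chromosome 15, 22867052 to 22981063, minus strand), the paralog that can take the place of CYFIP2 in the complex, had 227, 220 and 197 CPM in siRCC2, against 189, 195 and 191 CPM in siCtrl. The siRCC2 libraries were all higher, though siRCC2 replicate 3 lay only just above the siCtrl range. CYFIP1 averaged 214 ± 15.6 CPM in siRCC2 and 192 ± 2.65 CPM in siCtrl (log2 fold change 0.16 ± 0.07). Genes with a transcript within 20% of its length had a median log2 fold change of -0.10. The locus overlaps NIPA2, a magnesium transporter gene, by 1333 bases, and NIPA2 was higher in siRCC2 at 83.4 ± 14.3 CPM, against 61.5 ± 2.63 CPM in siCtrl (log2 fold change 0.44 ± 0.13, edgeR adjusted p = 0.0276). Whether reads were counted by strand is not given in the sources used here, so reads in such an overlap cannot be told apart.

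Levels of the paired CYFIP genes were then compared per kilobase of the longest annotated transcript, 6793 bases for CYFIP1 and 6370 bases for CYFIP2. CYFIP2 made up 0.958%, 0.892% and 1.48% of the summed CYFIP level in the siRCC2 libraries, against 12.8%, 13.7% and 12.1% in the siCtrl libraries. The groups did not overlap. The share averaged 1.11% ± 0.324 in siRCC2 and 12.9% ± 0.799 in siCtrl (SD, n = 3 each). By coding length it was 1.02% in siRCC2 and 11.98% in siCtrl, and by raw counts 1.04% in siRCC2 and 12.2% in siCtrl. CYFIP2 was lower and CYFIP1 higher in siRCC2, and their summed CPM differed by less than the spread within siRCC2, at 217 ± 15.1 CPM in siRCC2 and 218 ± 4.52 CPM in siCtrl, a ratio of 0.992. The log2 fold change of CYFIP1 was 0.09 with total count only and 0.11 without siRCC2 replicate 1. Whether CYFIP1 makes up for CYFIP2 was not tested.

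**Figure D4:**
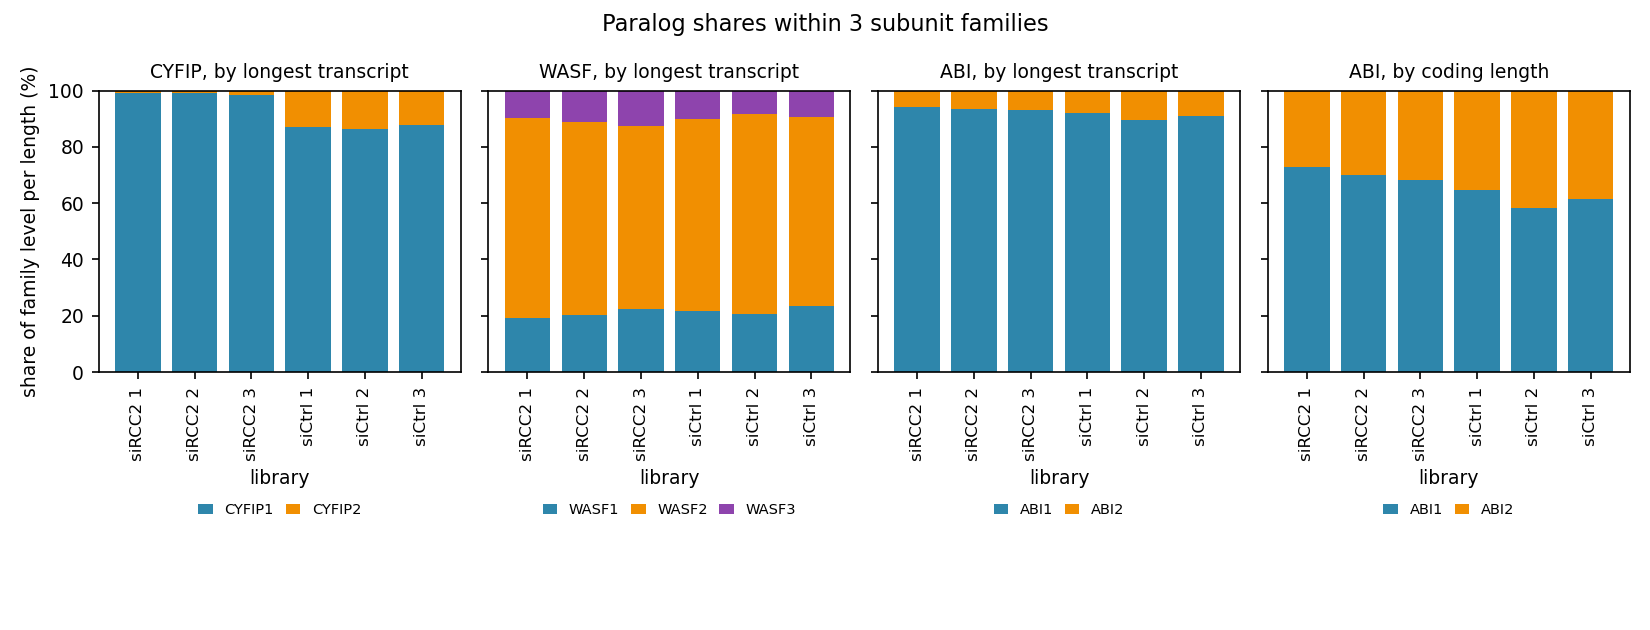
Share of each paralog in the summed level per kilobase of its family, in percent, as stacked bars for each library, siRCC2 to the left of siCtrl, by longest transcript for CYFIP, WASF and ABI and by coding length for ABI. CYFIP2 takes 1.11% of the CYFIP level in siRCC2 and 12.9% in siCtrl, while WASF2 takes 67.9% of the WASF level in siRCC2 and 68.6% in siCtrl.

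NCKAP1 (chromosome 2, 182909115 to 183038858, minus strand), also known as Nap1, is the large scaffold that pairs with CYFIP. It had 134, 215 and 224 CPM in siRCC2, against 187, 191 and 208 CPM in siCtrl. siRCC2 replicate 1 was the lowest of the 6 libraries and the other siRCC2 libraries were the highest, so the groups overlapped. NCKAP1 averaged 191 ± 49.6 CPM in siRCC2 and 195 ± 11.3 CPM in siCtrl (log2 fold change -0.03 ± 0.18). Without siRCC2 replicate 1 the log2 fold change was 0.16 ± 0.07. That library lay 0.71 below the other siRCC2 libraries on the log2 scale for NCKAP1, and 0.49 below them at the median of 56 genes of like transcript length. The longest NCKAP1 transcript is 20347 bases, of which 3402 are coding. The part of transcript length in the spread of NCKAP1 was not tested.

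WASF2, WASF1 and WASF3 encode WAVE2, WAVE1 and WAVE3, the subunits whose free end activates Arp2/3. WASF2 (chromosome 1, 27404226 to 27490158, minus strand), the widely expressed family member, had 314, 298 and 271 CPM in siRCC2, against 262, 275 and 250 CPM in siCtrl. siRCC2 replicate 3 lay inside the siCtrl range, and the other siRCC2 libraries lay above it. WASF2 averaged 294 ± 21.7 CPM in siRCC2 and 262 ± 12.2 CPM in siCtrl (log2 fold change 0.16 ± 0.08). The longest WASF2 transcript shares 7.86% of its 50-base stretches with the pseudogene WASF4P. WASF4P was itself at 7.62 ± 1.44 CPM in siRCC2 and 5.61 ± 0.843 CPM in siCtrl. The count of each is thus uncertain by what was assigned between them.

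WASF1 (chromosome 6, 110099819 to 110180004, minus strand), best known from the brain, had 48.7, 50.3 and 53.2 CPM in siRCC2, against 47.9, 45.3 and 50.2 CPM in siCtrl. The groups overlapped, and the log2 fold change was 0.09 ± 0.08. WASF3 (chromosome 13, 26557703 to 26688948, plus strand), known for a part in the invasion of cancer cells, had 37.3, 41.9 and 45.4 CPM in siRCC2, against 33.5, 27.6 and 30.4 CPM in siCtrl. All siRCC2 libraries were higher, by a margin smaller than the spread within siRCC2 for the closest pair. WASF3 averaged 41.5 ± 4.04 CPM in siRCC2 and 30.5 ± 2.93 CPM in siCtrl (log2 fold change 0.45 ± 0.11). The log2 fold change was 0.38 without siCtrl replicate 2 and 0.44 without siCtrl replicate 3. The antisense gene WASF3-AS1 had 0 counts in all libraries.

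Within the WASF family the makeup differed little between the groups. By longest transcript WASF2 took 67.9% ± 2.99 of the summed level per kilobase in siRCC2 and 68.6% ± 2.14 in siCtrl, and WASF1 took 20.7% ± 1.57 in siRCC2 and 22.0% ± 1.51 in siCtrl. WASF3 took 11.3% ± 1.44 in siRCC2 and 9.38% ± 0.910 in siCtrl, and its single values of 9.90%, 11.3% and 12.8% in siRCC2 overlapped the 10.2%, 8.41% and 9.54% in siCtrl. The summed CPM of the 3 WASF genes was 386 ± 15.6 in siRCC2 and 341 ± 8.77 in siCtrl.

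ABI1 and ABI2 encode the adaptor subunits that link the complex to ABL kinases and to other SH3 partners. ABI1 (chromosome 10, 26746593 to 26861087, minus strand) had 44.6, 43.9 and 44.3 CPM in siRCC2, against 38.5, 39.5 and 36.9 CPM in siCtrl. The siRCC2 libraries lay close together and all above siCtrl, with means of 44.3 ± 0.334 CPM in siRCC2 and 38.3 ± 1.29 CPM in siCtrl (log2 fold change 0.21 ± 0.08). PDSS1, which overlaps the ABI1 locus by 206 bases, was also higher in siRCC2, at 11.7 ± 0.290 CPM against 8.51 ± 0.647 CPM in siCtrl (log2 fold change 0.46 ± 0.11, edgeR adjusted p = 0.0156).

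ABI2 (chromosome 2, 203328219 to 203447723, plus strand) had 16.9, 19.2 and 21.0 CPM in siRCC2, against 21.1, 28.5 and 23.2 CPM in siCtrl. All siRCC2 libraries were lower, although siRCC2 replicate 3 nearly met siCtrl replicate 1. ABI2 averaged 19.0 ± 2.06 CPM in siRCC2 and 24.2 ± 3.795 CPM in siCtrl (log2 fold change -0.35 ± 0.15), and left-out libraries moved the value between -0.44 and -0.22. The 38 genes of like transcript length had a median log2 fold change of -0.17. RAPH1, which encodes lamellipodin and overlaps ABI2 over 53379 bases on the genome, had a log2 fold change of -0.34 ± 0.13 (edgeR adjusted p = 0.0710), at 77.0 ± 13.6 CPM in siRCC2 and 97.5 ± 2.29 CPM in siCtrl. ABI2 took 29.8% ± 2.35 of the summed ABI level per kilobase of coding sequence in siRCC2 and 38.4% ± 3.24 in siCtrl. By longest transcript, 22209 bases for ABI2, these shares were 6.47% ± 0.674 in siRCC2 and 9.24% ± 1.15 in siCtrl, so the balance of the pair rests on which transcript is made. With ABI1 higher and ABI2 lower, their summed CPM was 63.3 ± 1.93 in siRCC2 and 62.5 ± 4.68 in siCtrl.

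BRK1 (chromosome 3, 10115592 to 10127190, plus strand), also known as HSPC300, is the small subunit that joins WASF and ABI in a helical bundle. It had 3833, 3782 and 3569 counts in siRCC2, against 1923, 1707 and 1813 counts in siCtrl. The scaled level was 232, 195 and 187 CPM in siRCC2, against 95.4, 92.0 and 93.4 CPM in siCtrl. The lowest siRCC2 library lay far above the highest siCtrl library, with siRCC2 replicate 1 the highest of all. BRK1 averaged 205 ± 23.9 CPM in siRCC2 and 93.6 ± 1.72 CPM in siCtrl, a log2 fold change of 1.13 ± 0.09. Its value lay between 1.02 and 1.19 under the alternatives tried, and its log2 fold change ranked 498 from the highest among the 14984 tested genes with a mean of at least 1 CPM. The transcript is 1233 bases, with 225 of them coding, and 1149 genes of like length had a median log2 fold change of 0.06. Its pseudogenes BRK1P1 and BRK1P2 had 0 counts.

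The order of the levels was set per kilobase of the longest transcript. In siCtrl it was BRK1 at 75.9, WASF2 at 46.2, CYFIP1 at 28.2, WASF1 at 14.8, ABI1 at 10.7, NCKAP1 at 9.60, WASF3 at 6.32, CYFIP2 at 4.18 and ABI2 at 1.09 CPM per kilobase. No neighbours in that order had overlapping siCtrl ranges, although ABI1 (10.3 to 11.03) and NCKAP1 (9.20 to 10.2) nearly met. In siRCC2 BRK1 was again at the top with 166 CPM per kilobase and CYFIP2 at the bottom with 0.350, below ABI2 at 0.856. NCKAP1 (6.59 to 11.02) and WASF3 (7.74 to 9.40) overlapped there. Per kilobase of coding sequence CYFIP2 was the lowest member in both groups, at 0.582 in siRCC2 and 6.94 in siCtrl, and NCKAP1 moved up to 56.2 in siRCC2 and 57.4 in siCtrl. The places of NCKAP1 and ABI2, whose longest transcripts are mostly untranslated, thus depend on the length used.

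Summed over all 9 members, the level was 1055, 1085 and 1045 CPM in siRCC2, against 901, 922 and 909 CPM in siCtrl. The siRCC2 libraries were all higher, with means of 1062 ± 20.5 CPM in siRCC2 and 911 ± 10.3 CPM in siCtrl, a ratio of 1.17. Without CYFIP2 the sums were 1060 ± 20.9 CPM in siRCC2 and 884 ± 8.77 CPM in siCtrl. BRK1 alone accounts for 205 CPM of the siRCC2 mean and 93.6 CPM of the siCtrl mean. These sums are not divided by transcript length, so long transcripts weigh more in them and the ratio depends on that weighting. Per kilobase of the longest transcript BRK1 was the highest member, at 166 in siRCC2 and 75.9 in siCtrl. A summed ratio per kilobase was not computed.

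The 5 genes whose profile over the 6 libraries came closest to that of CYFIP2, by root mean square distance of centred log2 CPM among 12388 candidates, were C11orf71 (0.219), FUT1 (0.284), ASNS (0.351), KRT83 (0.363) and FSCN1 (0.376). The profile holds the same contrast, so these are genes that differed in the same direction. Their log2 fold changes were -4.96 for the matched C11orf71 model, -4.07 for FUT1, -2.8 for ASNS, -5.09 for KRT83 and -2.87 for FSCN1. For CYFIP2 it was -3.57. That C11orf71 model and KRT83 had at most 3 counts in any siRCC2 library. The 0.25 CPM added before taking logs shrinks such differences in the distance. FSCN1 encodes fascin, which bundles actin filaments in protrusions, and averaged 57.4 ± 8.65 CPM in siRCC2 and 418 ± 12.9 CPM in siCtrl (log2 fold change -2.87 ± 0.11). ASNS, asparagine synthetase, averaged 64.6 CPM in siRCC2 and 448 CPM in siCtrl. FUT1, a fucosyltransferase, averaged 0.742 CPM in siRCC2 and 12.4 CPM in siCtrl, and the hair keratin KRT83 averaged 0.0951 CPM in siRCC2 and 3.33 CPM in siCtrl. C11orf71 has 2 gene models with opposite differences, and their sum was 14.5 ± 1.41 CPM in siRCC2 and 8.23 ± 1.68 CPM in siCtrl, so its direction is uncertain.

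The blood-cell paralogs of the complex were at or near 0. NCKAP1L, also known as HEM1, had 0 counts in all 6 libraries, and ABI3 had at most 3 counts in any library. Neither was tested.

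Genes around the complex were read from lists of known partners, with the median log2 fold change of all tested genes at -0.02 and 41.8% of them called. The share called is given beside each list's median, and one near 41.8% is no result about that list. The lists were chosen with earlier results of these data known, so a share far from 41.8% is likewise only a description. Of 14 tested binding partners 2 rose, 4 fell and 8 did not pass (42.9% called, median -0.19). KIAA1522, of the Nance-Horan family, rose (1.08 ± 0.07, edgeR adjusted p = 9.44e-05), while its relatives NHSL1 (-0.64 ± 0.14, adjusted p = 0.0112) and NHS (-1.14 ± 0.31, adjusted p = 0.0244) fell. NHS had -0.86 without siRCC2 replicate 1, and its call was lost without siRCC2 replicate 2 or without any 1 siCtrl library, and the number of partners called fell to 2 without siCtrl replicate 2, and to 3 without siCtrl replicate 1 or siRCC2 replicate 2. Of the 10 subunits of Arp2/3, the nucleator that the complex activates, 5 rose, 2 fell and 3 did not pass (70% called, median 0.08). ARPC1A rose to 382 ± 40.2 CPM in siRCC2, against 193 ± 5.96 CPM in siCtrl (0.98 ± 0.09, adjusted p = 0.000248), and ACTR2, which encodes ARP2, fell to 84.9 ± 16.0 CPM in siRCC2, against 218 ± 43.1 CPM in siCtrl (-1.36 ± 0.19, adjusted p = 0.00149). Without siCtrl replicate 1, 4 subunits were called, and likewise without siCtrl replicate 3.

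Of 8 tested genes that restrain or stabilise Arp2/3 branches, 1 rose, 6 fell and 1 did not pass (87.5% called, median -1.0). The branch stabiliser cortactin (CTTN) rose (1.26 ± 0.08, adjusted p = 8.85e-05), and the inhibitor ARPIN fell (-0.94 ± 0.08, adjusted p = 0.000181), as did the coronins CORO1A (-1.64 ± 0.17, adjusted p = 0.000414) and CORO1B (-1.07 ± 0.11, adjusted p = 0.000516). Of 13 tested genes for other Arp2/3 activators and their partners 2 rose, 1 fell and 10 did not pass (23.1% called, median -0.04). Of 7 GTPases at or above the complex 3 rose, 1 fell and 3 did not pass (57.1% called, median 0.18), with RAC1, the GTPase that CYFIP binds, at 0.53 ± 0.10 (adjusted p = 0.00469) and CDC42 at 0.82 ± 0.07 (adjusted p = 0.00023). ARF6 fell (-0.70 ± 0.06, adjusted p = 0.000288). Of 14 tested RAC exchange factors and ELMO partners 1 rose, 6 fell and 7 did not pass (50% called, median -0.10), PREX1 (-1.01 ± 0.09, adjusted p = 0.000305) and DOCK5 (-1.04 ± 0.13, adjusted p = 0.00109) among those that fell. Of 11 RAC GTPase-activating genes 1 rose, 3 fell and 7 did not pass (36.4% called, median -0.22), and the number called came to 1 without siRCC2 replicate 2 and to 2 without each siCtrl library in turn.

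Of 9 formins and Ena/VASP genes, which lengthen filaments, 2 rose, 2 fell and 5 did not pass (44.4% called, median -0.25). Of 8 genes of the cofilin pathway, which severs filaments, 3 rose, 2 fell and 3 did not pass (62.5% called, median -0.05), with cofilin (CFL1, 0.91 ± 0.11, adjusted p = 0.000968) and destrin (DSTN, 1.17 ± 0.08, adjusted p = 9.44e-05) higher and LIMK1, the kinase that inactivates them, lower (-1.07 ± 0.08, adjusted p = 0.000112). Among the partners of CYFIP proteins in translation control, FMR1 (-0.10), FXR1 (-0.08) and FXR2 (0.02) did not pass, with 0.07, 0.07 and -0.06 in that order without siRCC2 replicate 1, and the cap-binding factor EIF4E rose (0.53 ± 0.11, adjusted p = 0.00821), so that 1 of 4 was called (25.0%, median -0.03). Set against these lists, CYFIP2 had a log2 fold change of -3.57, below that of every gene named from them. Since the set was chosen on that value, this place is a description and no result.

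**Figure D5:**
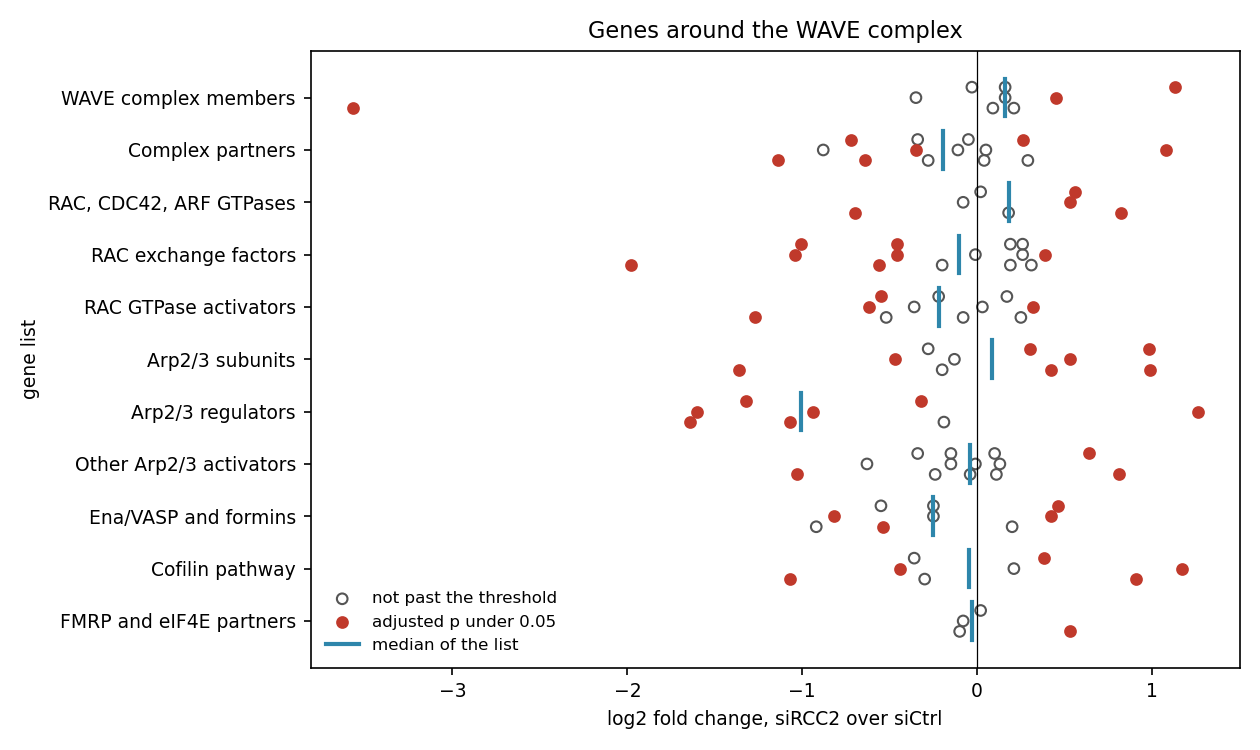
Log2 fold change of siRCC2 over siCtrl for the 9 complex genes and for the tested genes of 10 lists around the complex, 1 point per gene, with called genes filled and a bar at each list's median. CYFIP2 at -3.57, the value the set was chosen on, lies below the listed partners. The list of genes that restrain or stabilise Arp2/3 branches has a median of -1.0.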

How the data were processed

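RNA of 3 siRCC2 and 3 siCtrl DU145 libraries was sequenced, and the authors deposited 1 table of whole-number read counts per gene for each library. Bowtie2, RSEM, DESeq2 and GRCh38 are named, without versions or roles, per the submitters' processing notes, so the deposited counts may be rounded estimates. Counts were fitted here with edgeR 4.0.16 in R 4.3.3 (filterByExpr, TMM scaling, quasi-likelihood F-test over 16536 genes, Benjamini-Hochberg adjustment, threshold 0.05), with no covariate; folds are siRCC2 over siCtrl. The test was checked on simulated counts. Sequences came from GENCODE 29 (GRCh38) and RefSeq promoters; 8 of the 9 members matched a promoter, and WASF2 did not. Alternatives were DESeq2 1.42.0, other normalizations, no filter on low counts beyond 1 read, a replicate block, each library left out and other lengths. The members and lists were chosen with earlier results of these data known. Named genes were the members, RCC2, the 4 tested genes of each list with the smallest p, of which some are given, genes overlapping a member, tested genes within 500 kb of CYFIP2 and its 5 closest profiles (pseudocount 0.25 CPM, mean of at least 1 CPM, clone names left out). Depth of 17377191 to 19895431 counts puts the lowest member value at 34 counts; intervals were not computed, and the SDs hold the spread between libraries. Endothelial markers summed to 0.262 to 0.670 CPM in siRCC2 and 0.309 to 0.808 CPM in siCtrl, and fibroblast markers to 9.79 to 12.6 CPM in siRCC2 and 12.6 to 14.7 CPM in siCtrl. Results for some marker genes are not reported here.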

Additional observations from a re-analysis of the deposited data

How the results depend on the processing

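Over the alternatives run, CYFIP2 stayed between -3.76 and -3.44 and BRK1 between 1.02 and 1.19 on the log2 scale. The zero set by genes of like transcript length, an alternative chosen after seeing the data, moved CYFIP1 to 0.26. With total count only, ABI1 moved to 0.14 and the log2 ratio of the summed CPM of all members to 0.15, against 0.22 with TMM. The share of CYFIP2 in siCtrl by coding length, also chosen after seeing the data, was 11.98%. Leaving out 1 library at a time gave 2 to 5 members past the threshold and 1 to 4 of them higher, since WASF3 was lost without siCtrl replicate 2 or 3 while CYFIP1 and WASF2 were gained without siRCC2 replicate 3. The same step gave 2 to 8 complex partners, 4 to 7 Arp2/3 subunits and 1 to 5 RAC GTPase-activating genes called. The cause was not tested. Replicates with the same number did not deviate together (correlations 0.059, -0.042 and 0.099). With so few libraries, of which siRCC2 replicate 1 stood apart, this cannot settle whether they shared a culture or batch. With the replicate number as a block 6295 genes were called, against 6911 without it, CYFIP2 was at -3.58, 3 members were past the threshold and 2 RAC GTPase-activating genes were called, against 4 without the block. Genes called ranged from 5112 to 7565. Of 682 values for 62 other named genes 643 kept their side of the threshold, 36 lost it and 3 gained it; 5 of the values, of FMR1, FXR1 and FXR2, which were not called, changed sign, as did 3 values of NCKAP1. For CYFIP2 in siRCC2, 34 to 53 counts limit the precision.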
